A study of Homo sapiens with 12 samples.

Results

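The 10 genes described here encode enzymes that make asparagine, serine and one-carbon units or carry sulfur and carbon to and from these routes. They were ASNS, PHGDH, PSAT1, PSPH, SHMT2, MTHFD2, CTH, CBS, ALDH1L2 and PCK2, and they were picked by symbol as a set whose transcription is known to be driven by ATF4. All 10 were among the 36502 genes counted, and all 10 were among the 17262 genes with enough counts to be tested. RNA was sequenced from HT1080 cells, a human fibrosarcoma line, in 12 libraries. The VP16 clone carries the m6A-Tracer, a protein that binds adenine-methylated DNA, joined to the VP16 activation domain, and the GFP clone carries the tracer labelled as a GFP fusion. Each construct was carried by 1 clone, so a difference between clones may belong to either. In each clone, tracer_Dam cells received doxycycline at 50 ng/ml for 3 days and then 24 h without it, with 500 nM Shield1, the ligand used to bring up the Dam methyltransferase fused to lamin B1. The tracer cells had the same 3 days and 24 h with no Shield1, and uninduced cells stayed in doxycycline for 4 days. The groups are called VP16_tracer_Dam, VP16_tracer, VP16_uninduced, GFP_tracer_Dam, GFP_tracer and GFP_uninduced, with 2 libraries each. Removal of doxycycline is part of every induced group, so it cannot be told apart from the tracer, nor Shield1 from Dam-LaminB1.

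ATF4 is a bZIP transcription factor whose messenger RNA is translated preferentially when the initiation factor eIF2 is phosphorylated, as happens on amino acid shortage, stress of the endoplasmic reticulum or mitochondrial dysfunction. It binds composite C/EBP-ATF elements near genes of amino acid synthesis, uptake and transfer RNA charging. Serine is made from the glycolytic intermediate 3-phosphoglycerate by PHGDH, PSAT1 and PSPH in turn, and SHMT2, MTHFD2 and ALDH1L2 then handle its one-carbon unit in mitochondria. Many tumour cell lines rely on this route for purine and thymidylate synthesis.

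The promoters of ASNS, CTH and PCK2 are shown because these genes were among those that differed most between libraries, and because the ASNS promoter is the textbook case of a C/EBP-ATF element. Each is the stretch from 250 bases before to 50 bases after the start site, 5′ to 3′, from RefSeq on GRCh38.p14. Capitals mark matches to TGATGNAA, the core of the C/EBP-ATF element, or to GTTACA, a second element known from ASNS.
ASNS promoter (chr7:97872359-97872658, reverse strand): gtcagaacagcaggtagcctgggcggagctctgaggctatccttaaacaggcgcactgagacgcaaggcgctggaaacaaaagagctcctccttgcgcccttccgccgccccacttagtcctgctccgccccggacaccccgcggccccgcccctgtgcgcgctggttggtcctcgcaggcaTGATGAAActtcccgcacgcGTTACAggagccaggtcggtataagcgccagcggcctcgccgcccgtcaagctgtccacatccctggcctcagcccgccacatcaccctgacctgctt
CTH promoter (chr1:70411018-70411317, forward strand): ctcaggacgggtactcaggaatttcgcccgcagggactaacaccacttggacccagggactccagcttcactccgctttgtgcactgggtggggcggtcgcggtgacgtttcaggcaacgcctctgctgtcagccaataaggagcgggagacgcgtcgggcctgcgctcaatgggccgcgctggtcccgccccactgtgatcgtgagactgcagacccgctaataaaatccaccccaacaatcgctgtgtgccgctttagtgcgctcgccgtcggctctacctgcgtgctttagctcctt
PCK2 promoter (chr14:24094061-24094360, forward strand): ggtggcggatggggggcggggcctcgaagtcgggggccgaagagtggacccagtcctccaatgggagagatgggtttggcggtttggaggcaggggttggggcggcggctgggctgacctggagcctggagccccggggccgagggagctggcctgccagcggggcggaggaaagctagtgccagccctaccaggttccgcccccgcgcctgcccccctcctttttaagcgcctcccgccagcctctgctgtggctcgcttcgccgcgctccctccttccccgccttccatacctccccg
RefSeq's table held 7 of the 10 genes, ASNS, PHGDH, PSAT1, MTHFD2, CTH, CBS and PCK2, with 10 start sites. Both motifs were searched on both strands, in windows of 300 bases, and GTTACA was added with the sequences in view. TGATGNAA matched only the first ASNS start site among these 10, at 68 to 61 bases before the start as TGATGAAA, and GTTACA matched only there too, 48 to 43 bases before it. Among all 35116 promoters of that length, 3.62% held TGATGNAA and 6.66% held GTTACA. These matches describe letters in 1 window, not binding.

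The libraries held 18774905 to 24827396 counted reads, of which the 10 enzymes together took 0.0666% to 0.238%. The library titles reuse 6 index sequences, once in each of 2 sets of 6 libraries with 1 library of every group, here called index sets 1 and 2. The labels state neither what separates the sets nor whether replicate libraries stem from different cultures, and the p-values therefore speak for the spread among these 12 libraries, which may be technical. On the first principal component of all genes the GFP_tracer_Dam and GFP_tracer libraries of index set 1 lay at -87.0 and -78.2, apart from the other 10 at -16.2 to 41.0. Results are therefore given per index set, and those that rest on these 2 libraries are also given without them. The 8 mesenchymal markers expected of the line summed to 4907 to 8450 CPM per library, with VIM alone at 1745 to 4206 CPM. Of these 8, 7 averaged at least 1 CPM, while THY1 was at 0.089 to 0.814 CPM. Sums were 2.82 to 5.49 CPM for 6 epithelial, 0.093 to 0.702 CPM for 6 blood and 4.17 to 8.00 CPM for 4 neural markers. Of these, 1 epithelial, 0 blood and 2 neural markers averaged at least 1 CPM. Less RNA per cell and fewer cells of a kind cannot be told apart in such bulk samples.

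Scaled for the joined length of all annotated exons, uninduced cells of both clones held most RNA of PSAT1, the serine pathway's aminotransferase. They held least of ALDH1L2. Their mean levels over 4 uninduced libraries, in RPKM (reads per kilobase of exon, scaled to library size), were 96.1 for PSAT1, 40.1 for MTHFD2, 37.7 for SHMT2, 16.9 for ASNS and 11.1 for PSPH. CBS stood at 7.70, PHGDH at 7.68, PCK2 at 6.43, CTH at 1.97 and ALDH1L2 at 0.22 on the same scale. The ranges over these 4 libraries overlapped for MTHFD2 and SHMT2, and for CBS, PHGDH and PCK2, so the order within these 2 sets of neighbours does not exceed the spread. Lengths came from GENCODE 29 on GRCh38, while reads were counted on GRCh37. They joined the exons of all listed transcripts, from 2188 bases for PSAT1 to 9217 for PHGDH. A gene with long exons that these cells do not use thus reads too low, and the order between genes is approximate. In CPM, without scaling for length, the ranges of PSAT1, MTHFD2 and SHMT2 over the 4 uninduced libraries overlapped. All levels below are CPM scaled by TMM factors, which compare libraries but not genes. Wherever 2 values are given for a group, the first is from index set 1 and the second from index set 2.

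ASNS, asparagine synthetase, makes asparagine from aspartate and glutamine (chromosome 7, 97481430 to 97501854, GRCh37). It stood at 43.3 and 101 CPM in VP16_tracer_Dam, 48.0 and 108 CPM in VP16_tracer and 68.9 and 99.8 CPM in VP16_uninduced. In the GFP clone it was at 420.4 and 69.8 CPM in GFP_tracer_Dam, 341 and 66.9 CPM in GFP_tracer and 56.3 and 75.8 CPM in GFP_uninduced. Only the 2 induced GFP libraries of index set 1 lay above 108 CPM. Within that set ASNS was 7.47-fold (95% interval 7.04 to 7.92) higher in GFP_tracer_Dam and 6.05-fold (95% interval 5.70 to 6.43) higher in GFP_tracer than in GFP_uninduced, where the exact binomial interval covers counting error only. In index set 2 the ratios to GFP_uninduced were 0.921 and 0.884. The pseudogene ASNSP1, which could take reads from ASNS, had 1 to 143 counts, against at least 1017 for ASNS itself.

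PHGDH, 3-phosphoglycerate dehydrogenase, opens the serine pathway (chromosome 1, 120202421 to 120286838). Its levels were 54.2 and 85.4 CPM in VP16_tracer_Dam, 57.0 and 93.5 CPM in VP16_tracer and 65.2 and 85.5 CPM in VP16_uninduced, against 124 and 71.9 CPM in GFP_tracer_Dam, 112 and 75.3 CPM in GFP_tracer and 53.5 and 78.9 CPM in GFP_uninduced. PSAT1, phosphoserine aminotransferase, carries out the second step (chromosome 9, 80912043 to 80945009). It was at 165 and 289 CPM in VP16_tracer_Dam, 170.1 and 307 CPM in VP16_tracer and 182 and 289.7 CPM in VP16_uninduced. GFP cells held PSAT1 at 543 and 198 CPM in GFP_tracer_Dam, 479 and 193 CPM in GFP_tracer and 164 and 205 CPM in GFP_uninduced. PSPH, phosphoserine phosphatase, completes serine synthesis (chromosome 7, 56078744 to 56119297). Outside the induced GFP libraries of index set 1 its levels lay close together, with 27.9 and 31.2 CPM in VP16_tracer_Dam, 27.5 and 32.6 CPM in VP16_tracer, 28.6 and 33.8 CPM in VP16_uninduced, 48.1 and 29.9 CPM in GFP_tracer_Dam, 50.3 and 29.9 CPM in GFP_tracer and 28.7 and 31.5 CPM in GFP_uninduced. All 3 serine enzymes were highest in the 2 induced GFP libraries of index set 1, by unequal amounts. The ratio of GFP_tracer_Dam to GFP_uninduced in that set was 3.30-fold (95% interval 3.18 to 3.43) for PSAT1, 2.31-fold (95% interval 2.16 to 2.47) for PHGDH and 1.67-fold (95% interval 1.52 to 1.85) for PSPH. In index set 2 it was 0.965, 0.911 and 0.951 in the same order.

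SHMT2, the mitochondrial serine hydroxymethyltransferase, moves serine's one-carbon unit onto folate (chromosome 12, 57623110 to 57628718). It varied least of the 10, between 157 and 207 CPM, with 157 and 189 CPM in VP16_tracer_Dam, 168 and 195 CPM in VP16_tracer and 185 and 199.9 CPM in VP16_uninduced. GFP cells held SHMT2 at 184 and 162 CPM in GFP_tracer_Dam, 207 and 173 CPM in GFP_tracer and 171 and 173 CPM in GFP_uninduced. It was the single enzyme of the 10 whose 2 induced GFP libraries of index set 1 did not both exceed the other 10 libraries, since GFP_tracer_Dam lay below VP16_uninduced, and of all genes 22.3% had both libraries above the others. MTHFD2, the mitochondrial methylenetetrahydrofolate dehydrogenase and cyclohydrolase, acts next (chromosome 2, 74425689 to 74444692). It was at 141 and 224 CPM in VP16_tracer_Dam, 158 and 241 CPM in VP16_tracer and 171 and 243 CPM in VP16_uninduced. MTHFD2 in GFP cells was at 502 and 191 CPM in GFP_tracer_Dam, 469 and 193 CPM in GFP_tracer and 163 and 204 CPM in GFP_uninduced, a ratio to GFP_uninduced of 3.08-fold (95% interval 2.97 to 3.19) for GFP_tracer_Dam in index set 1 and of 0.937 in index set 2. ALDH1L2, the mitochondrial 10-formyltetrahydrofolate dehydrogenase, releases the unit as carbon dioxide with gain of NADPH (chromosome 12, 105413568 to 105478355). It was at 1.40 and 2.39 CPM in VP16_tracer_Dam, 1.84 and 3.07 CPM in VP16_tracer and 1.52 and 2.32 CPM in VP16_uninduced. ALDH1L2 in GFP cells was at 20.6 and 1.52 CPM in GFP_tracer_Dam, 15.9 and 1.81 CPM in GFP_tracer and 1.78 and 2.03 CPM in GFP_uninduced. The rarest RNA of the 10 thus had one of the steepest differences, 11.6-fold (95% interval 8.38 to 16.4) for GFP_tracer_Dam over GFP_uninduced in index set 1. Low counts left its ratio in index set 2, 0.747, with an interval from 0.474 to 1.17. Along this mitochondrial route the first enzyme varied little while MTHFD2 and ALDH1L2 were far higher in the same 2 libraries.

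CBS, cystathionine beta-synthase, joins serine to homocysteine (chromosome 21, 44473301 to 44497053), and CTH, cystathionine gamma-lyase, splits the product into cysteine (chromosome 1, 70876901 to 70905534). CBS was at 39.6 and 71.6 CPM in VP16_tracer_Dam, 34.2 and 73.0 CPM in VP16_tracer and 37.3 and 64.1 CPM in VP16_uninduced. CBS in GFP cells was at 239 and 63.8 CPM in GFP_tracer_Dam, 188 and 60.7 CPM in GFP_tracer and 40.3 and 67.5 CPM in GFP_uninduced. CTH differed most of the 10 between its lowest and its highest library, 16.9-fold. It was at 6.90 and 6.73 CPM in VP16_tracer_Dam, 5.47 and 8.99 CPM in VP16_tracer and 4.35 and 5.97 CPM in VP16_uninduced, and at 57.2 and 4.60 CPM in GFP_tracer_Dam, 54.3 and 4.74 CPM in GFP_tracer and 3.37 and 5.34 CPM in GFP_uninduced. Within index set 1, CTH ranked number 23 from the top among the 17262 tested genes by its ratio of GFP_tracer_Dam to GFP_uninduced, 16.9-fold (95% interval 13.4 to 21.6), while CBS had 5.93-fold (95% interval 5.53 to 6.37). In index set 2 the ratios were 0.861 for CTH and 0.945 for CBS.

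PCK2, the mitochondrial phosphoenolpyruvate carboxykinase, turns oxaloacetate into phosphoenolpyruvate and so can feed carbon back toward serine (chromosome 14, 24563262 to 24579807). It was at 24.8 and 32.7 CPM in VP16_tracer_Dam, 23.3 and 36.6 CPM in VP16_tracer and 22.9 and 31.8 CPM in VP16_uninduced. PCK2 in GFP cells was at 197 and 27.7 CPM in GFP_tracer_Dam, 156 and 26.0 CPM in GFP_tracer and 25.0 and 28.0 CPM in GFP_uninduced. The 10 libraries other than the induced GFP pair of index set 1 spanned 22.9 to 36.6 CPM, and that pair lay at 197 and 156 CPM. PCK1, its cytosolic counterpart, had too few counts to be tested, at 0 to 0.041 CPM. The strand setting of the counting is not given, and by the listed gene spans SHMT2 overlaps NDUFA4L2, MTHFD2 overlaps SLC4A5, CBS overlaps MX2, ALDH1L2 overlaps C12orf45 and PCK2 overlaps NRL, so reads in shared stretches are uncertain.

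**Figure D1:**
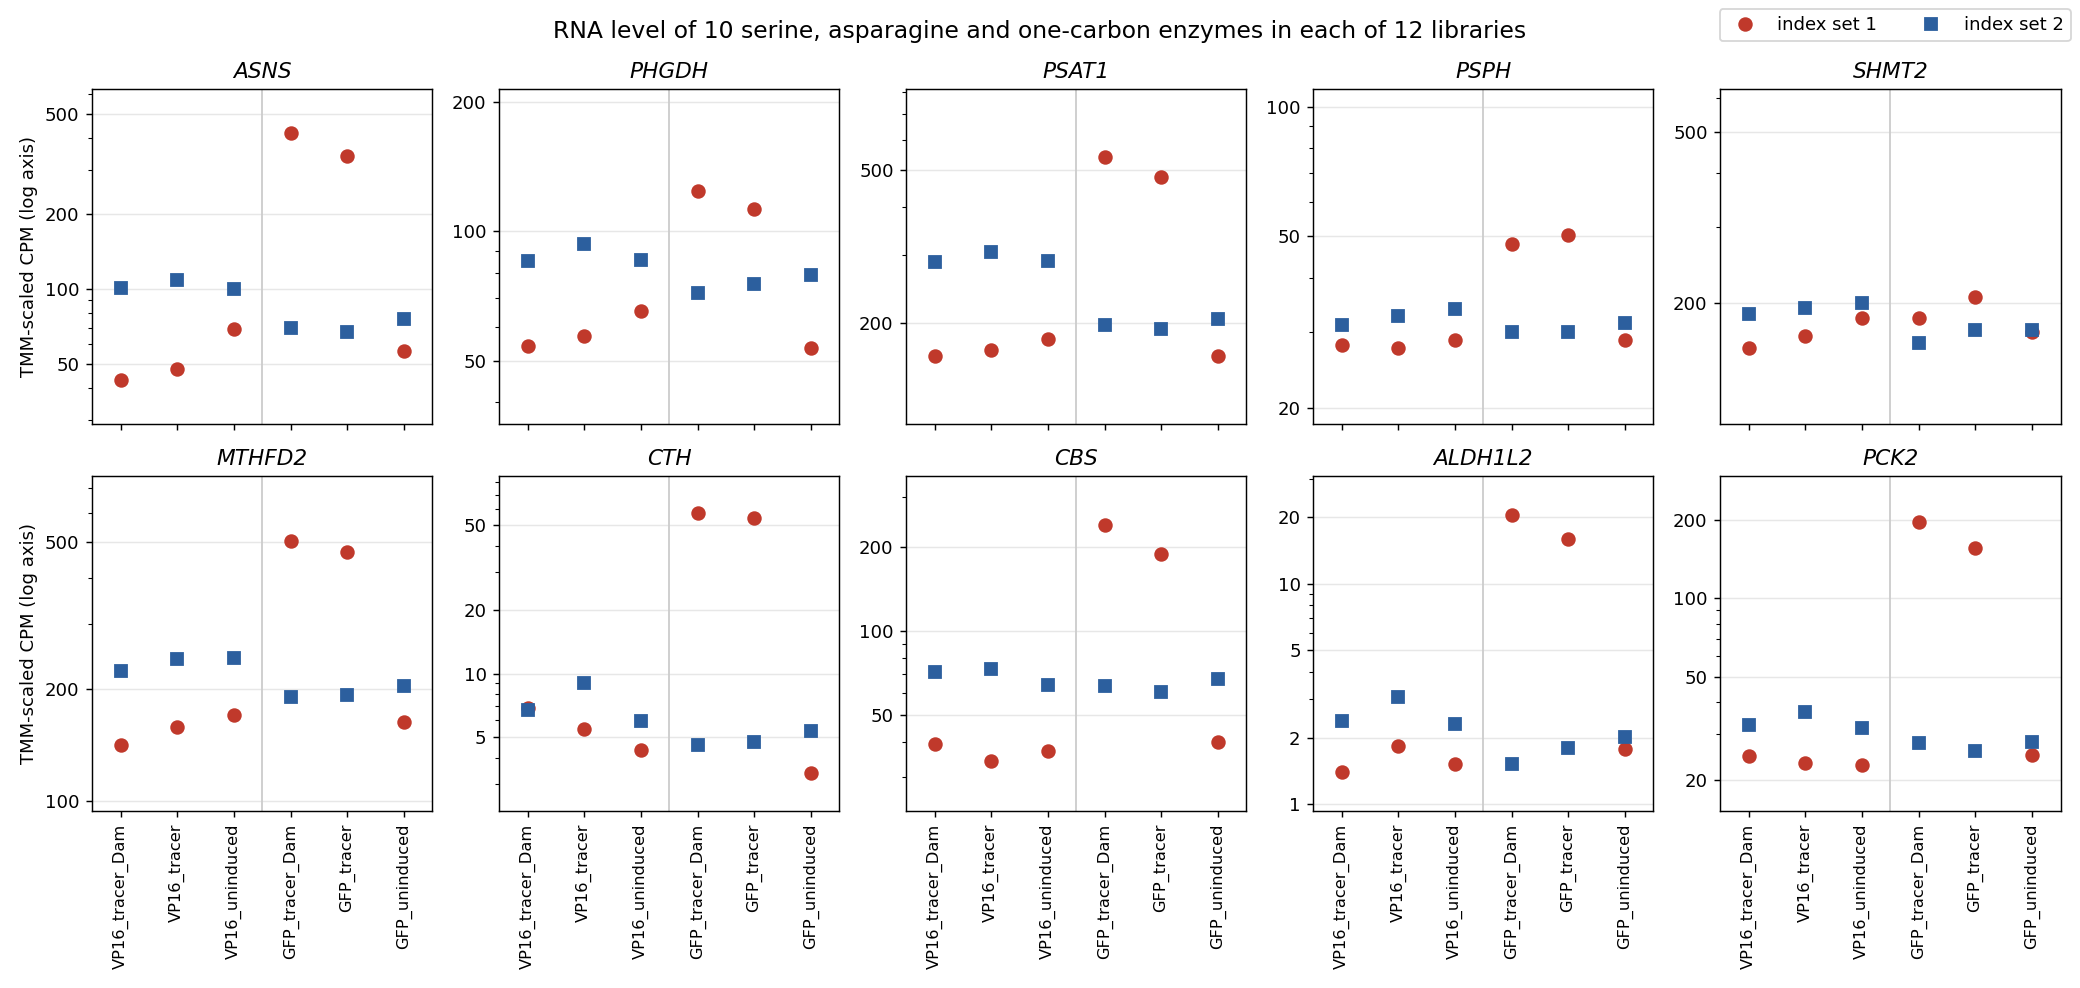
TMM-scaled CPM on a log axis for each of the 10 enzymes, with the 6 groups along the horizontal axis, red circles for the library of index set 1 and blue squares for that of index set 2. In 9 of the 10 panels the GFP_tracer_Dam and GFP_tracer circles lie above every other mark, SHMT2 being the exception.

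Dam-LaminB1 with the tracer was set against the uninduced state of the GFP clone to ask what both induced proteins together do to these genes. Over both index sets all 10 enzymes had a higher fitted level in GFP_tracer_Dam than in GFP_uninduced, but none passed the test, and the 2 sets differed in direction. In index set 1 all 10 were higher, 8 of them past 2-fold, against 8.53% of all tested genes past 2-fold higher and 52.0% higher by any amount. In index set 2 all 10 were lower and none was past 2-fold in either direction, where 52.7% of genes were higher and 0.672% past 2-fold higher. In index set 1 the median log2 ratio of the enzymes was 2.14, and in the other set it was -0.10. By edgeR's quasi-likelihood test with Benjamini-Hochberg adjustment, CTH differed by 2.82 ± 1.22 on the log2 scale (SE, unadjusted p = 0.047, adjusted p = 0.93) and ALDH1L2 by 2.53 ± 1.18 (SE, adjusted p = 0.93). The other log2 differences were 2.08 ± 0.94 for PCK2, 1.89 ± 0.94 for ASNS, 1.49 ± 0.74 for CBS, 1.00 ± 0.58 for PSAT1, 0.92 ± 0.53 for MTHFD2, 0.56 ± 0.38 for PHGDH, 0.37 ± 0.28 for PSPH and 0.00 ± 0.15 for SHMT2 (SE). Of all genes 0, or 0%, passed this edgeR test, 228 (1.32%) had an unadjusted p under 0.05, CTH among them, and DESeq2 and limma-voom also called 0. Once the index set was a block, CTH had an unadjusted p of 0.0875, and 795 genes (4.61%) but none of the 10 were under 0.05 by edgeR, with 0 passing after adjustment. A count of 0 does not show that no gene changed. The result rests on 1 library: without the GFP_tracer_Dam library of index set 1 the median of the enzymes was 0.08, against 1.25 with it.

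The tracer alone, GFP_tracer against GFP_uninduced, gave the same division between the sets, but it shares the GFP_uninduced libraries with the comparison above. In index set 1 the enzymes were 16.1-fold (95% interval 12.8 to 20.6) higher for CTH, 8.98-fold (95% interval 6.46 to 12.8) for ALDH1L2, 6.24-fold (95% interval 5.71 to 6.84) for PCK2 and 4.67-fold (95% interval 4.34 to 5.02) for CBS. The ratios were 2.92 for PSAT1, 2.87 for MTHFD2, 2.10 for PHGDH, 1.75 for PSPH and 1.20 for SHMT2. All 10 were thus higher, as 51.6% of all genes were, and 8 of them past 2-fold, against 6.49%. In index set 2 all 10 were lower, with ratios from 0.884 for ASNS to 0.999 for SHMT2, and none was past 2-fold higher, where 50.2% of genes were higher and 0.817% past 2-fold higher. The fitted log2 difference over both sets was 2.76 ± 1.22 for CTH, 2.22 ± 1.18 for ALDH1L2 and 1.63 ± 0.94 for ASNS (SE, edgeR adjusted p = 0.999 for all 3). No enzyme and 0% of genes passed, while 125 genes (0.724%), or 385 (2.23%) with the block, had an unadjusted p under 0.05, and DESeq2 and limma-voom called 0. The median of the enzymes was 1.03 and became 0.04 without the GFP_tracer library of index set 1.

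**Figure D2:**
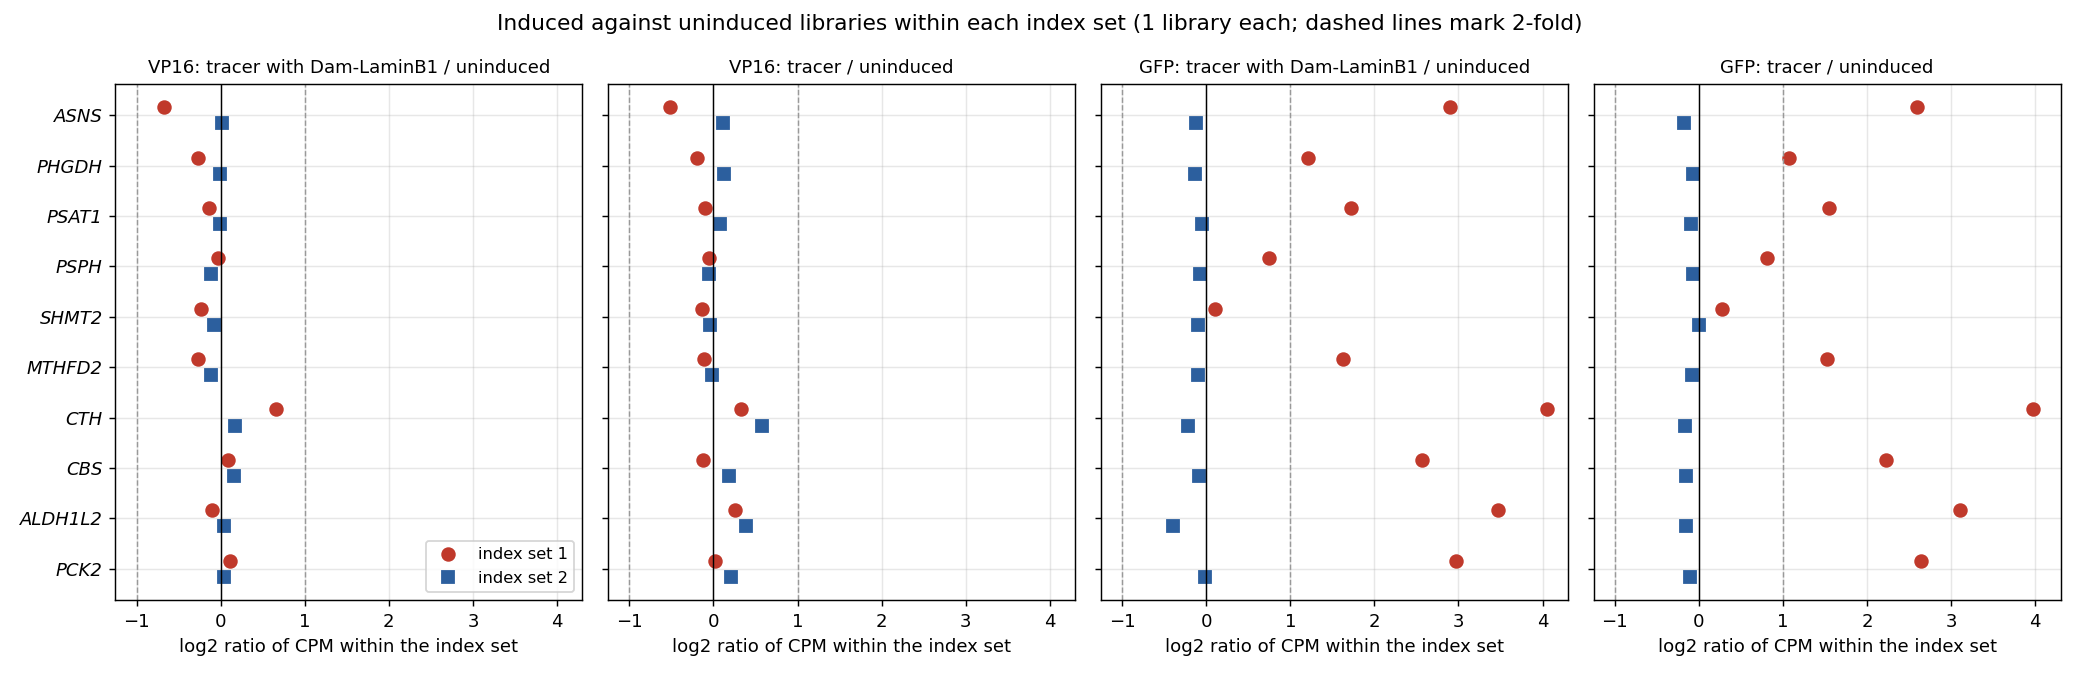
log2 ratio of CPM of each induced library to the uninduced library of its own index set, for the 10 enzymes in rows, with the VP16 clone in the left pair of panels and the GFP clone in the right pair. In the GFP clone the red circles (index set 1) reach 4.05 for CTH while the blue squares (index set 2) all lie below 0, and in the VP16 clone no mark passes the dashed 2-fold lines.

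With Dam-LaminB1 added to the tracer, the enzymes of the GFP clone differed little from those with the tracer alone. GFP_tracer_Dam against GFP_tracer had a median log2 ratio of 0.16 in the first set and -0.01 in the other. ASNS, PSAT1, CBS and PCK2 were higher in GFP_tracer_Dam in both sets, by 1.23 and 1.04 for ASNS and by 1.27 and 1.05 for CBS, while SHMT2 was lower in both, at 0.890 and 0.935. A gene was higher in both sets in 26.4% of cases over all genes and lower in both in 24.8%. None of the 10 passed, with edgeR log2 differences from -0.13 ± 0.15 for SHMT2 to 0.32 ± 1.10 for ALDH1L2 (SE, adjusted p = 1 for both). Among all genes 0% passed, 80 (0.463%), or 215 (1.25%) with the block, had an unadjusted p under 0.05, and DESeq2 and limma-voom called 0.

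In the VP16 clone the induced states lay close to the uninduced one. VP16_tracer_Dam against VP16_uninduced gave a median log2 ratio of -0.13 in the first set and 0.01 in the other. No enzyme was past 2-fold, where 2.75% of genes in index set 1 and 1.58% in index set 2 were past 2-fold higher, while 5 enzymes were lower in both sets (32.0% of genes were) and 3 higher in both (33.3%). MTHFD2 was at 0.828 and 0.921 of its uninduced level and SHMT2 at 0.850 and 0.944, both lower in each set. CTH was at 1.59 and 1.13 of its uninduced level, the highest ratios of the 10, and ASNS was at 0.629 and 1.01. With all 12 libraries in the fit none of the 10 and 0% of genes passed, with 189 genes (1.09%), or 623 (3.61%) with the block, at an unadjusted p under 0.05 and 0 called by DESeq2 and limma-voom. In a fit of only the 6 VP16 libraries that holds a term for the index set, chosen after the data were seen, MTHFD2 fell by 0.19 on the log2 scale (SE 0.04, edgeR adjusted p = 0.0085) and SHMT2 fell by 0.15 (SE 0.04, edgeR adjusted p = 0.033). In that fit 4.17% of 16139 genes were called lower and 5.58% higher. CTH, at 0.42 ± 0.16, did not pass there (SE, edgeR adjusted p = 0.11), nor did ASNS at -0.29 ± 0.25 (SE, edgeR adjusted p = 0.61).

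VP16_tracer against VP16_uninduced, which shares its uninduced libraries with the comparison above, gave a median log2 ratio of -0.10 in the first set and 0.12 in the other. CTH was at 1.26 and 1.51 of its uninduced level, and ALDH1L2 and PCK2 were likewise higher in both sets, where 28.8% of all genes were. PSPH, SHMT2 and MTHFD2 were lower in both, where 31.1% of genes were. VP16_tracer_Dam against VP16_tracer had 6 of the 10 lower in both sets, ASNS, PHGDH, PSAT1, SHMT2, MTHFD2 and ALDH1L2, against 27.7% of genes, and none higher in both, against 28.0%. None of the 10 passed in either comparison with 12 libraries, where 0% of genes did, and DESeq2 and limma-voom called 0. An unadjusted p under 0.05 was found for 72 genes (0.417%), or 217 (1.26%) with the block, for the tracer and for 53 (0.307%), or 195 (1.13%), for Dam-LaminB1 on top of it. The 6-library fit with the block called 0.861% of genes for the tracer and 0.0806% for Dam-LaminB1 on top of it, again none of the 10.

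**Figure D3:**
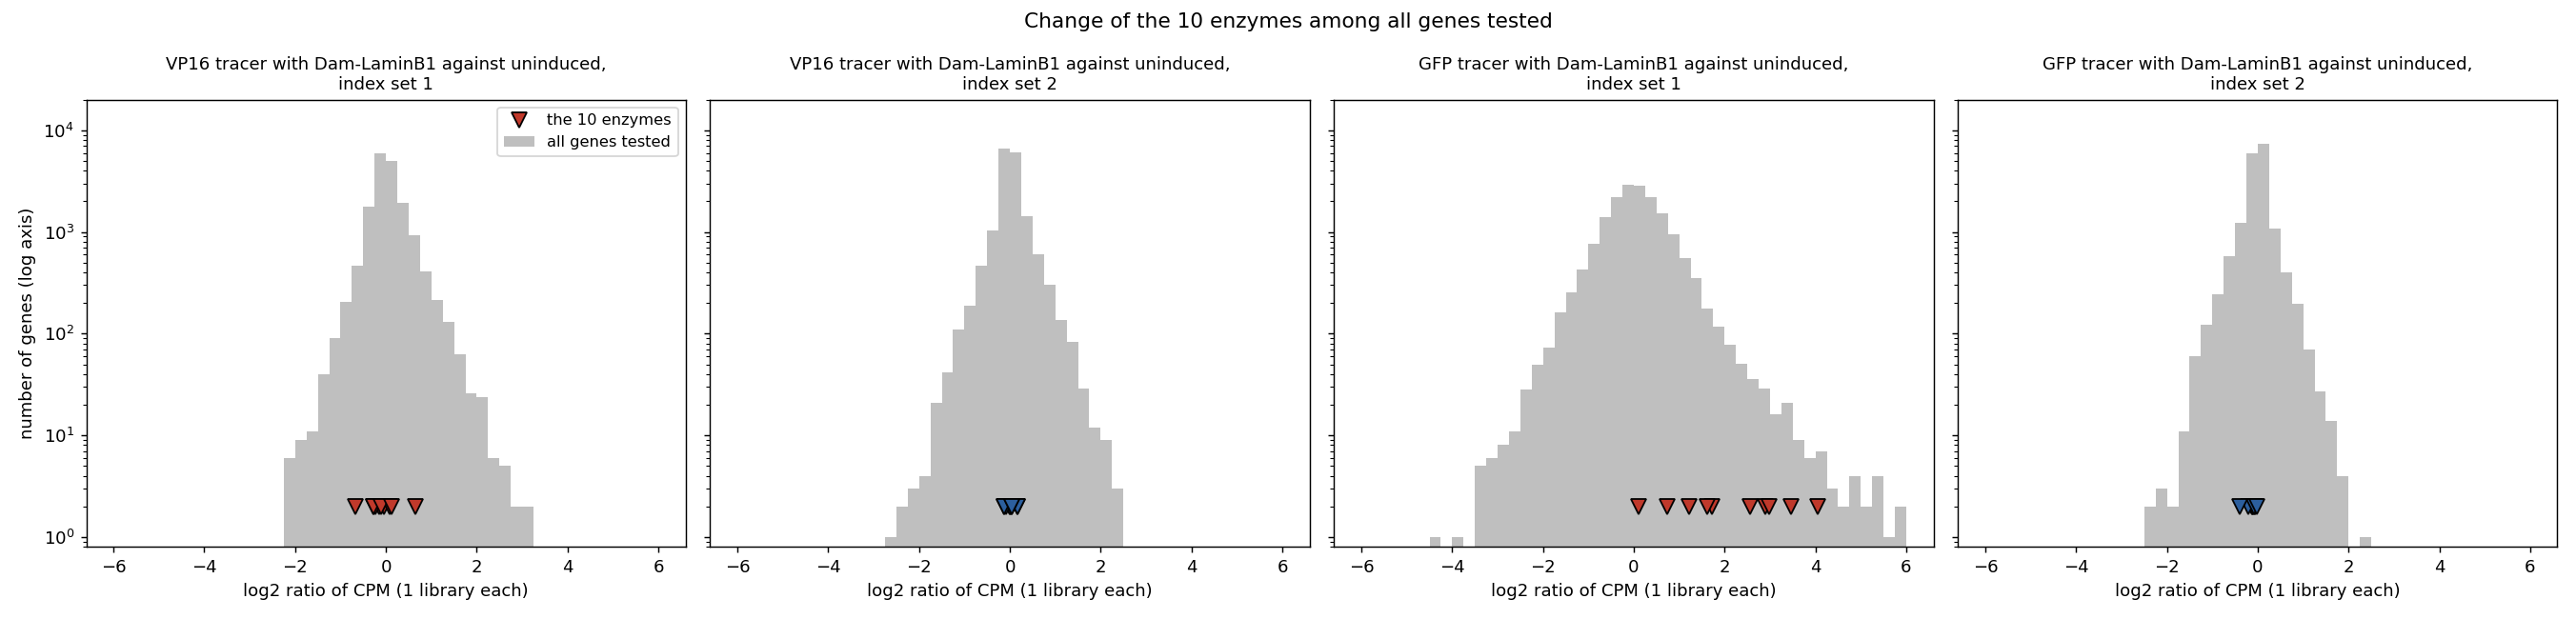
Number of tested genes (log axis) by log2 ratio of the tracer_Dam library to the uninduced library, per clone and index set, with the 10 enzymes as triangles. In the GFP clone's index set 1 the enzymes spread from 0.10 for SHMT2 to 4.05 for CTH, toward the upper edge of all genes, and in the other 3 panels they lie within 1 log2 unit of 0.

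Whether the clones responded differently was tested directly. The tracer response of the VP16 clone minus that of the GFP clone was -2.27 ± 1.67 for CTH, -1.87 ± 1.65 for ALDH1L2, -1.74 ± 1.30 for ASNS and -1.65 ± 1.29 for PCK2 on the log2 scale (SE, edgeR adjusted p = 1 for all 4). All 10 differences were negative in index set 1 (50.5% of genes were), and 9 were positive in index set 2 (50.5% of genes), SHMT2 being the exception at -0.03. The median of these differences was -1.01 over the enzymes, -0.076 without the GFP_tracer library of index set 1 and 0.24 without both induced GFP libraries of that set, with index-set terms. The difference in response to Dam-LaminB1 on top of the tracer had a median of -0.21 over the enzymes, and its direction turned with single libraries, at -1.13 without the GFP_tracer library of index set 1 and 0.82 without the GFP_tracer_Dam library of that set. No enzyme and 0% of genes passed for either difference, and DESeq2 and limma-voom called 0. An unadjusted p under 0.05 was found for 94 genes (0.545%), or 247 (1.43%) with the block, in the tracer difference and for 50 (0.290%), or 122 (0.707%), in the Dam-LaminB1 difference. Without induction, VP16_uninduced minus GFP_uninduced had a median of 0.17 log2 units, which was between -0.050 and 0.33 without 1 of the 4 libraries, with 0.35 ± 0.58 for PSAT1 and 0.35 ± 0.92 for ASNS (SE, edgeR adjusted p = 1 for both). Of the 10, 6 were higher in both sets in VP16_uninduced (38.8% of all genes were) and CBS was lower in both (32.7%). None of the 10 passed, where 0.278% of genes did, or 1.89% once the index set was a block in the fit.

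Within the VP16 clone most of the enzymes lay apart by index set. In index set 1 all 3 VP16 libraries lay below all 3 of index set 2 for 9 of the 10 enzymes, which held for 22.2% of all genes, and CTH was the exception. The same direction held in GFP_uninduced, where all 10 were lower in index set 1, against 49.5% of genes. Index set 1 minus index set 2 in the VP16 clone was -0.97 ± 0.52 for ASNS, -0.91 ± 0.44 for CBS, -0.78 ± 0.30 for PSAT1, -0.71 ± 0.68 for ALDH1L2, -0.60 ± 0.29 for MTHFD2 and -0.59 ± 0.23 for PHGDH on the log2 scale (SE). It was -0.51 ± 0.50 for PCK2, -0.37 ± 0.73 for CTH, -0.21 ± 0.16 for PSPH and -0.20 ± 0.07 for SHMT2 (SE). With all 12 libraries in edgeR's test none of these passed, at adjusted p from 0.13 for SHMT2 to 0.8 for CTH, where 3.89% of genes were called lower. When only the 6 VP16 libraries were fitted, a setting added after the data were seen, 9 of the 10 were called lower, against 21.7% of 16139 genes. PSAT1 was then at -0.77 ± 0.04 (SE, edgeR adjusted p = 1.2e-14) and CBS at -0.91 ± 0.05 (SE, edgeR adjusted p = 3.6e-12). CTH was at -0.36 ± 0.13 (SE, edgeR adjusted p = 0.029), while ASNS, at -0.97 ± 0.20, was not called (SE, edgeR adjusted p = 0.07). These p-values speak for how alike the gap was among the 3 groups, not for what separates the sets. The enzymes' median in the VP16 clone was -0.59 with all 12 libraries and -0.60 without the GFP_uninduced library of either set. That difference is estimated from the VP16 libraries, so leaving out a GFP library could hardly move it. The likeness of these medians is thus no check on the result.

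For the GFP clone, index set 1 minus index set 2 was positive for all 10 in the fit, from 0.14 ± 0.07 for SHMT2 to 2.43 ± 0.64 for ALDH1L2 (SE). ALDH1L2 (edgeR adjusted p = 0.025) and PCK2, at 1.83 ± 0.55 (SE, edgeR adjusted p = 0.038), passed as higher, where 18.7% of all genes did, and CTH just missed at 2.41 ± 0.79 (SE, edgeR adjusted p = 0.051). These 2 calls rest on the induced libraries of index set 1, since without that pair ALDH1L2 was at -0.21 and PCK2 at -0.17. Those 2 values come from the GFP_uninduced pair alone, as each induced group then kept 1 library. The 2 calls were also lost without any 1 of the 10 libraries outside GFP_uninduced. Without the GFP_uninduced library of either set the enzymes' median was 1.54, against 0.91 with all 12 libraries. Only the induced pairs then entered it. The set difference of the VP16 clone minus that of the GFP clone was -3.14 ± 0.93 for ALDH1L2, -2.78 ± 1.07 for CTH, -2.55 ± 0.77 for ASNS, -2.34 ± 0.74 for PCK2, -1.89 ± 0.65 for CBS and -1.61 ± 0.44 for PSAT1 (SE). None of the 10 and 0% of genes passed, at adjusted p = 0.25 for ALDH1L2, although all 10 and 18.2% of genes had an unadjusted p under 0.05. DESeq2 called 3 of the 10 and 156 genes. Without the GFP_uninduced library of either set the enzymes' median of this difference was -2.39, against -1.75 with all 12 libraries.

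**Figure D4:**
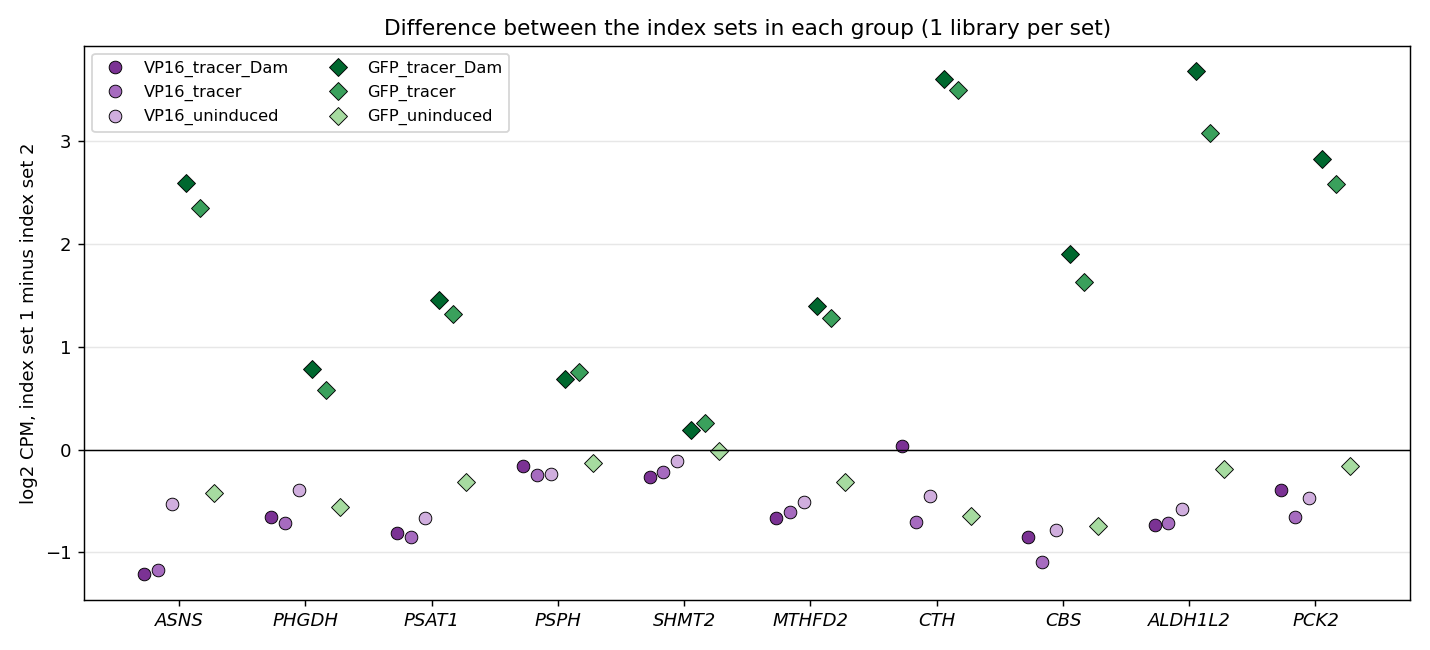
log2 CPM of index set 1 minus that of index set 2, for each enzyme on the horizontal axis and each of the 6 groups, circles for the VP16 clone and diamonds for the GFP clone. GFP_tracer_Dam and GFP_tracer lie above 0 for all 10 enzymes, while the VP16 groups and GFP_uninduced lie below 0, apart from CTH in VP16_tracer_Dam, just above it.

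The enzymes varied together across libraries, but the spread of r over all genes was not examined. Both induced GFP libraries of index set 1 lay above the other 10 for 22.3% of all genes. All 3 VP16 libraries of index set 1 lay below those of index set 2 for 22.2%. Over all 12, each enzyme's log2 CPM correlated with the mean of the other 9 at r = 0.95 to 0.99, except PHGDH at 0.90 and SHMT2 at 0.61. Without the induced GFP libraries of index set 1, r was higher for PSAT1, PHGDH and SHMT2 and lower for the other 7, CTH above all. Over these 10 libraries it was 0.97 for PSAT1, 0.95 for MTHFD2, PHGDH and PCK2, 0.92 for ASNS and PSPH, 0.85 for ALDH1L2, 0.83 for CBS, 0.76 for SHMT2 and 0.55 for CTH. The 8 other genes whose profile over the 12 libraries was most like the mean of the enzymes were CEBPG (r = 0.995), PYCR1 (0.992), PTPDC1 (0.989), FOXN2 (0.988), CHAC1 (0.987), C17orf80 (0.987), GARS (0.986) and INHBE (0.986). Over the 10 libraries r was 0.961 for CEBPG, 0.951 for PYCR1, 0.969 for PTPDC1, 0.905 for FOXN2, 0.935 for CHAC1, 0.920 for C17orf80, 0.976 for GARS and 0.959 for INHBE. CEBPG encodes a bZIP partner of ATF4, PYCR1 an enzyme of proline synthesis, CHAC1 a glutathione-degrading enzyme and GARS glycyl-tRNA synthetase. Alike in course, they differed in size: the ratio of GFP_tracer_Dam to GFP_uninduced in index set 1 was 32.9 for CHAC1, 19.2 for INHBE, 6.46 for CEBPG and 1.42 for C17orf80.

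**Figure D5:**
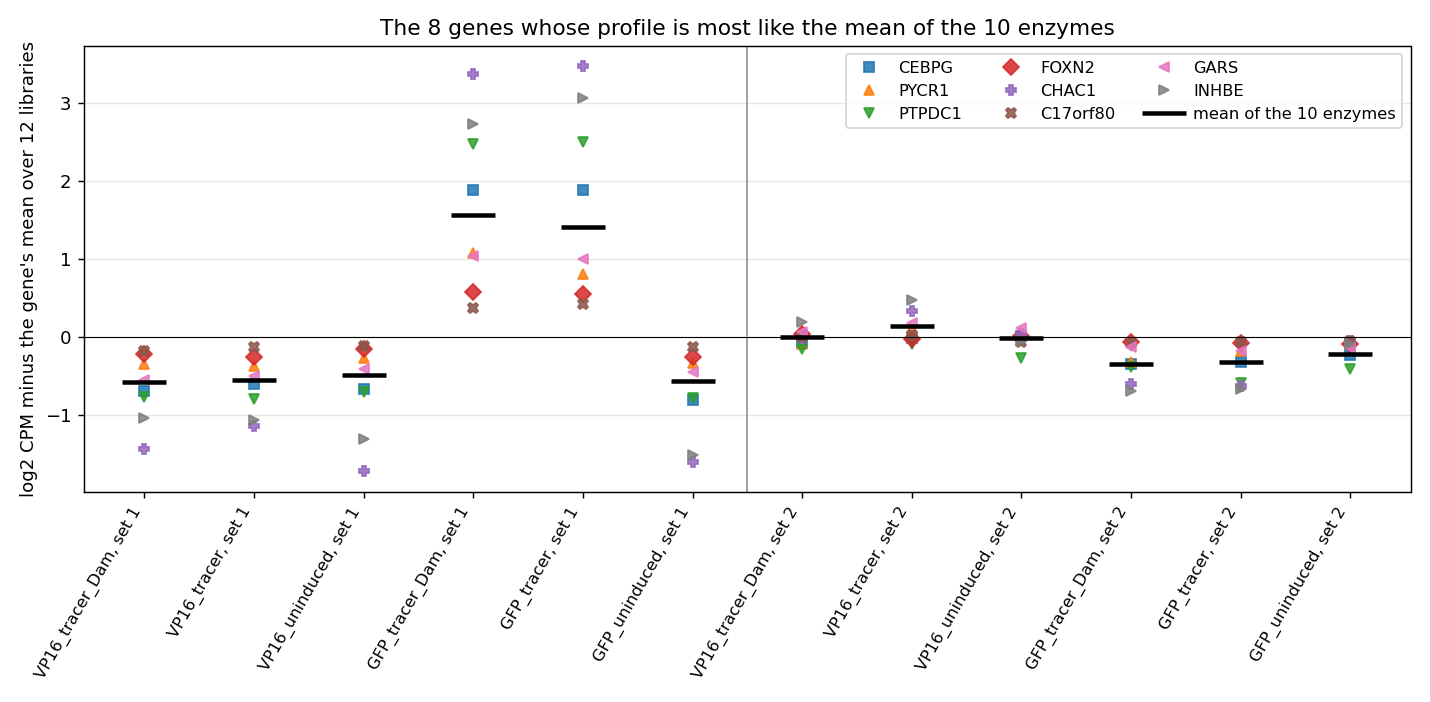
log2 CPM minus each gene's mean over 12 libraries, for the 8 genes most like the enzymes (symbols) and for the mean of the 10 enzymes (black bars), with index set 1 left of the vertical line. All lie above 0 in GFP_tracer_Dam and GFP_tracer of index set 1, CHAC1 farthest, and within 1 log2 unit of 0 in index set 2.

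ATF4 itself and many, though not all, of a list of its known regulators and targets were higher in the same libraries. ATF4 RNA was at 117 and 191 CPM in VP16_tracer_Dam, 129.7 and 213 CPM in VP16_tracer and 138 and 204 CPM in VP16_uninduced. In the GFP clone it was at 263 and 179 CPM in GFP_tracer_Dam, 281 and 179 CPM in GFP_tracer and 122 and 196 CPM in GFP_uninduced, so ATF4 too was lower in index set 1 in every group but the induced GFP ones. Of 26 genes of this list, 18 were past 2-fold higher and 1 lower in GFP_tracer_Dam than in GFP_uninduced in index set 1, against 8.53% and 5.98% of all genes. In index set 2 it was 0 either way, against 0.672% higher and 1.16% lower. The gene past 2-fold lower was ATF5, another bZIP factor, at 15.0 CPM in GFP_tracer_Dam and 58.2 CPM in GFP_uninduced of index set 1. The eIF2 kinases EIF2AK1, EIF2AK2, EIF2AK3 and EIF2AK4 were lower there too, none past 2-fold, EIF2AK4 at 115 CPM in GFP_tracer_Dam and 155 CPM in GFP_uninduced, and these 5 genes were named after their values were seen. The 4 largest fitted changes of the list in that comparison were those of FGF21, CHAC1, DDIT3 and ATF3. DDIT3, the stress factor CHOP, was at 77.4 and 5.35 CPM in GFP_tracer_Dam, 93.6 and 4.74 CPM in GFP_tracer and 6.79 and 5.38 CPM in GFP_uninduced. ATF3, another bZIP factor of the stress response, was at 152 and 10.5 CPM in GFP_tracer_Dam, 192 and 8.59 CPM in GFP_tracer and 15.4 and 9.68 CPM in GFP_uninduced. In the VP16 clone DDIT3, unlike most of the enzymes, was higher in index set 1 in all 3 groups, with 6.90 and 5.45 CPM in VP16_tracer_Dam, 8.12 and 6.41 CPM in VP16_tracer and 7.77 and 5.97 CPM in VP16_uninduced. None of the 26 genes passed edgeR's test in any comparison between groups.

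In the induced GFP libraries of index set 1, neighbouring pathways held smaller shares of genes past 2-fold than the 10 enzymes did. The 10 were picked as driven by ATF4 and are left out of these lists, and all were chosen with earlier results known. The contrast thus also reflects how the lists were drawn. Of 26 other one-carbon genes tested, 0 were past 2-fold either way in GFP_tracer against GFP_uninduced in index set 1. In GFP_tracer_Dam in that set, 2 were past 2-fold higher, AMT and SDSL, and 2 past 2-fold lower, SHMT1 and TYMS, where 8.53% and 5.98% of all genes were. TYMS, thymidylate synthase, was at 45.0 and 109.6 CPM in GFP_tracer_Dam, 67.8 and 114 CPM in GFP_tracer and 113 and 106 CPM in GFP_uninduced. SHMT1, the cytosolic counterpart of SHMT2, was at 5.41 and 23.2 CPM in GFP_tracer_Dam, 10.9 and 18.1 CPM in GFP_tracer and 17.4 and 20.5 CPM in GFP_uninduced, and was named after its values were seen. The median log2 ratio of GFP_tracer_Dam to GFP_uninduced in index set 1 was -0.10 over these 26 genes, against 2.14 over the 10 enzymes.

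Purine synthesis uses formyl groups from folate. In index set 1, 0 of its 12 genes were past 2-fold higher in GFP_tracer_Dam than in GFP_uninduced, and PRPS1 and PRPS2 were past 2-fold lower. Of all genes, 8.53% were past 2-fold higher and 5.98% past 2-fold lower in that comparison and set. GART went the other way and alone of the 12 had a higher fitted level over both sets. It was at 473 and 354 CPM in GFP_tracer_Dam, 484 and 352 CPM in GFP_tracer and 314 and 341 CPM in GFP_uninduced. PRPS1, a phosphoribosyl pyrophosphate synthetase, was at 30.0 and 69.1 CPM in GFP_tracer_Dam, 42.7 and 80.5 CPM in GFP_tracer and 82.9 and 71.8 CPM in GFP_uninduced. Of 18 tested genes of amino acid nitrogen handling, 7 were past 2-fold higher in that comparison and set, against 8.53% of all genes, and in index set 2 none was past 2-fold higher and 1 past 2-fold lower, against 0.672% and 1.16%. That 1 was ASS1, argininosuccinate synthase, with few counts at 0.042 CPM in GFP_tracer_Dam and 0.199 CPM in GFP_uninduced, named after its values were seen. ASS1 was also among the 7 higher in index set 1, at 1.38 CPM against 0.62 CPM in GFP_uninduced. ASPG, at 0.69 against 0.18 CPM, and GPT, at 3.66 against 1.78 CPM, were low members of the 7 too, also named after their values were seen. GOT1, the cytosolic aspartate aminotransferase, was at 219 and 73.4 CPM in GFP_tracer_Dam, 206 and 74.2 CPM in GFP_tracer and 74.9 and 74.1 CPM in GFP_uninduced. GPT2, the mitochondrial alanine aminotransferase, was at 88.9 and 37.2 CPM in GFP_tracer_Dam, 92.4 and 38.6 CPM in GFP_tracer and 28.2 and 40.3 CPM in GFP_uninduced. Both thus had the set-dependent course of the enzymes. Of 11 tested genes of cysteine and glutathione metabolism, 2 were past 2-fold higher, CHAC1 and SLC7A11, both also on the ATF4 list, and SUOX was past 2-fold lower. SLC7A11, the cystine importer, was at 279 and 60.2 CPM in GFP_tracer_Dam, 291 and 57.4 CPM in GFP_tracer and 23.3 and 69.5 CPM in GFP_uninduced. Of 9 tested genes around glycolysis and phosphoenolpyruvate, 0 were past 2-fold, with a median log2 ratio of -0.17. No gene of these 4 lists or of the other one-carbon genes passed edgeR's test in a comparison between groups.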

How the data were processed

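Trizol RNA was made into libraries with Illumina's TruSeq RNA kit, per the labels' protocols. The submitters' processing notes name TopHat 1.4.0, Bowtie 0.12.7, HTSeq and the build GRCh37, while HTSeq's strand setting is not given in the sources used here. Raw whole-number read counts per gene, without normalization, are what the authors deposited. Genes passing edgeR's filterByExpr were scaled with TMM factors, and a prior count of 2 entered log2 CPM. edgeR 4.0.16 (R 4.3.3) fitted its quasi-likelihood model, each group with 1 coefficient, to 12 libraries (6 residual degrees of freedom), or with an index-set coefficient per clone for the index sets (4). P-values were adjusted by Benjamini-Hochberg over 17262 genes at 0.05, and the SE was the absolute log2 change divided by the square root of F. DESeq2 1.42.0, limma-voom (limma 3.58.1), RLE factors, other count filters, the index-set block, only the groups compared and leaving out libraries were alternatives.

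Deviations from the group means correlated within an index set for all 15 pairs of groups (r = 0.41 to 0.86), so the sets pair the libraries, and counts with the block are printed beside those without it. Replicates differed beyond counting noise (chi-square per degree of freedom at least 19.6). The enzymes and lists were chosen with earlier results of these data known. All 10 enzymes are named in each comparison, of other lists up to 4 genes with the largest change, and the 8 genes most like the enzymes by correlation. A gene that this rule also names is not reported here. Intervals of single-library ratios are 95% exact binomial and cover counting error only. Scripts were tested on simulated counts.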

Additional observations from a re-analysis of the deposited data

Results flagged for a closer look

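By its ratios, ASNS was lower in VP16_tracer_Dam than in VP16_tracer in both index sets. It was higher in GFP_tracer_Dam than in GFP_tracer in both. In index set 2 of the GFP clone the ASNS ratio, 1.04, was within counting error (interval 0.971 to 1.12). The intervals of the other ASNS pairs excluded 1. The mean log2 change of the VP16 clone minus that of the GFP clone was -0.305. PSAT1 showed the same opposition of ratios between the clones, with -0.175. Its ratio was within counting error in GFP index set 2, at 1.03 (interval 0.984 to 1.07). The same held in VP16 index set 1, at 0.969 (interval 0.926 to 1.01), but not in the other PSAT1 pairs. The opposition itself was not tested, and edgeR's test of the difference in response gave -0.38 ± 1.29 for ASNS and -0.21 ± 0.82 for PSAT1 (SE, adjusted p = 1 for both). Such patterns arise in some genes by chance, and the share of all genes with one was not counted. Both enzymes were also among those with a wide gap between the index sets.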

How the results depend on the processing

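Counts of called genes are given for edgeR with 12 libraries unless stated. VP16_uninduced against GFP_uninduced called 48 genes, 297 with DESeq2, 220 with no count filter, 14 with at least 10 counts in every library, 327 with the index set as a replicate block, 1 with only the groups compared, 1 to 5 without 1 library and 20 to 101 without 1 library and with the block; none of the 10 enzymes was among them in the first of these fits. The block changed no call of an enzyme. For the index sets in the GFP clone, edgeR's main fit called 35.2% of all genes in either direction. The share of all genes called there with DESeq2, limma-voom or no count filter is not given. The enzyme counts under those 3 settings therefore cannot be read as more or fewer than among all genes. For the index sets in the GFP clone, 2 enzymes were called, 6 with DESeq2, 4 with limma-voom, 0 with no count filter and 0 to 10 without 1 library (1530 to 10547 genes, against 6069). For the difference of the set effects between clones, 0 genes were called, 156 with DESeq2 (3 enzymes), 117 with no count filter and 0 to 7252 without 1 library (0 to 10 enzymes). In the VP16 clone the index sets gave 1624 genes and 0 enzymes, 73 to 5821 genes and 0 to 10 enzymes without 1 library.

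Without the 2 induced GFP libraries of index set 1 and with index-set terms, added after the data were seen, the counts were 1 each for GFP_tracer and VP16_tracer against their uninduced groups, 1 each for Dam-LaminB1 on top of the tracer in either clone and for the difference of those responses, 56 for VP16_tracer_Dam against VP16_uninduced and 3685 for the uninduced clones. The index sets then gave 7176 genes and 9 enzymes in the VP16 clone, 5 enzymes at a median log2 of -0.33 in the GFP clone, with ALDH1L2 reversed to -0.21 and PCK2 to -0.17, and 530 genes, 2 enzymes and a median of -0.22 for their difference. In this fit the set difference of the GFP clone came from the GFP_uninduced pair alone, as each induced GFP group kept 1 library. The spread in its test came from the VP16 libraries, so its calls do not rest on replicated GFP libraries. The share of all genes called for it is not given, and the difference between the clones has the same limit. The median of the difference in Dam-LaminB1 response was -0.078 in this fit. With only the 6 libraries of a clone and the replicate block, also added later, VP16_tracer against VP16_uninduced called 139 genes, Dam-LaminB1 on top of the tracer 13, and VP16_tracer_Dam against VP16_uninduced 1573 with 2 enzymes. The index sets called 7025 genes and 9 enzymes in the VP16 clone and 892 genes and 0 enzymes in the GFP clone.

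Leaving out 1 library, with or without the block, moved the median log2 change of the enzymes between -1.38 and 1.10 for the difference in Dam-LaminB1 response, -1.11 and 1.37 for GFP_tracer_Dam against GFP_tracer, -0.62 and 0.48 for VP16_tracer against VP16_uninduced, and -0.65 and 0.63 for VP16_tracer_Dam against VP16_tracer. It moved between -0.56 and 0.40 for VP16_tracer_Dam against VP16_uninduced and between -0.19 and 0.55 for the uninduced clones. GFP_tracer against either GFP_uninduced or GFP_tracer_Dam called 0 or 1 genes in these fits. A lone library left in a group was assumed to vary like the others. In the index-set fits it bore on no set difference, so calls without 1 library also reflect which pairs remained. The causes were not tested. ALDH1L2, the enzyme with the lowest level, had 28 to 505 counts per library, which widened the counting intervals of its ratios.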
